A study of Arabidopsis thaliana with 24 samples.

Results

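Aliphatic glucosinolates are defence compounds that Arabidopsis makes from methionine. The 10 genes described here encode enzymes and 1 transporter of their synthesis. They are MAM1 (AT5G23010), MAM3 (AT5G23020), BCAT4 (AT3G19710), BAT5 (AT4G12030), IPMDH1 (AT5G14200), CYP79F1 (AT1G16410), CYP79F2 (AT1G16400), CYP83A1 (AT4G13770), UGT74C1 (AT2G31790) and SOT18 (AT1G74090). They were chosen by gene ID for their role in the pathway, with earlier results of these data known, and are 10 of the 33602 genes in the deposited table of read counts. RefSeq names MAM3 IMS2 and IPMDH1 IMD1, and gives AT2G31790 no symbol.

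RNA was sequenced from whole seedlings of Col-0, the laboratory reference accession of Arabidopsis thaliana, and IP-Svi-0, a natural accession that the submitters describe as flowering early. Seeds of both accessions were stratified for 3 days on half-strength MS medium and then moved to 10, 16, 23 or 27 °C, with 3 libraries for each of the 8 combinations and 24 libraries in all. Seedlings at 10 °C were collected 23 days after the move, those at 16 °C after 12, those at 23 °C after 8 and those at 27 °C after 7 days. Age and temperature therefore cannot be told apart, while both accessions were collected on the same day at each temperature. No gene was altered in either accession, and the labels do not say whether libraries came from separate plates or batches, so p-values measure the spread between these libraries only.

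The pathway has 3 stages. In the first, methionine is converted to a keto acid by BCAT4, carried into the plastid by BAT5 and lengthened by the MAM synthases, an isomerase and the dehydrogenase IPMDH1. In the second, CYP79F1 and CYP79F2 turn the lengthened methionine into an aldoxime, CYP83A1 oxidises it further, sulfur is added, and UGT74C1 and SOT18 attach glucose and sulfate. In the third, the side chain is modified, among others by AOP2. The MYB factors MYB28, MYB29 and MYB76, with MYC partners, are the known activators of these genes, and the glucosinolates are found in leaves, roots and seeds.

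Sequencing gave 22215651 to 24308874 reads a library. Gene counts made up 1.41 to 3.61% of them, or 338784 to 870567. Between 59.6 and 89.8% of reads were assigned to no gene and 2.67 to 35.8% were not aligned uniquely. That last share was above 20% in 5 libraries, namely the 3 of Col-0 at 16 °C, Col-0 10 °C replicate 2 and IP-Svi-0 16 °C replicate 3. An exon opposite an exon of another gene was found in 20.5% of nuclear genes, and 54.2% of nuclear counts fell at these. The libraries were made with a strand-specific kit, but the sources used here do not give the strand setting of the counting, so reads of such a gene and its opposite partner cannot be told apart. Had the setting been the reverse of the kit's, counts at a gene would be of reads from its other strand, and which of the settings was used was not established. Values below are therefore of reads counted at a gene, and the caution holds for the 10 genes and all lists. Levels below are counts scaled to the TMM-adjusted library size (CPM), which are levels relative to the rest of the transcriptome. In whole seedlings, fewer cells that express a gene and less RNA per cell cannot be told apart.

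The 10 genes together held 168 to 1105 counts per library, so single libraries of the weaker genes rest on few reads. Their summed level was 668.8 to 730.2 CPM as group means in Col-0 and 841.3 to 1051 CPM in IP-Svi-0. The lowest group mean of IP-Svi-0 was above the highest of Col-0. Single libraries overlapped, since they ranged from 599.7 to 878.7 CPM in Col-0 and from 718.5 to 1077 CPM in IP-Svi-0. Of the 10 genes, 9 passed the filter on low counts and were tested, and BAT5 did not pass it.

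IP-Svi-0 had higher levels of counted reads than Col-0 at 5 genes, CYP83A1, CYP79F1, BCAT4, UGT74C1 and SOT18, and a lower level at MAM1. These 6 of 9 tested genes passed an adjusted p of 0.05 for the mean difference over the 4 temperatures, 5 of them higher and 1 lower. Of all 10097 genes tested, 32.7% passed in the same comparison, 16% as higher and 16.7% as lower. The median log2 difference of the 9 genes was 0.42, against 0.02 over all genes. The 3 libraries of one accession lay apart from those of the other at 6 of the 9 genes at 10 °C, 3 at 16 °C, 5 at 23 °C and 6 at 27 °C, which was so for 39.4, 21.4, 27.1 and 25.4% of all genes tested. MAM3, IPMDH1 and CYP79F2 did not pass. All adjusted p-values come from edgeR's quasi-likelihood test with Benjamini-Hochberg adjustment over all genes tested, and log2 differences are IP-Svi-0 minus Col-0.

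**Figure D1:**
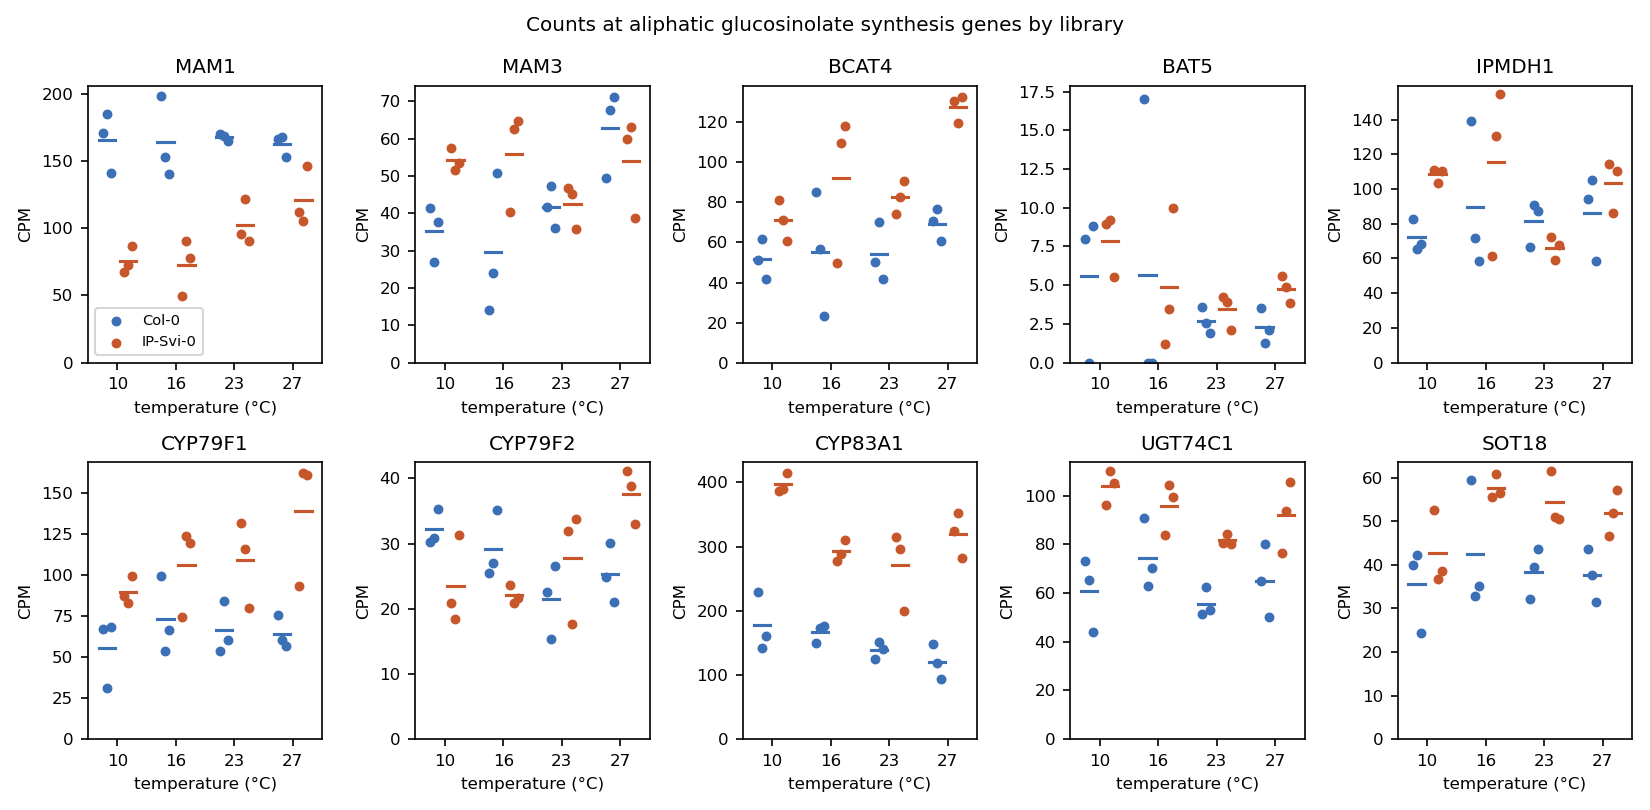
Level of each of the 10 genes in CPM (vertical axis) in every library, by accession and growth temperature in °C (horizontal axis). Points are libraries and lines are group means of 3. At CYP83A1 the 3 IP-Svi-0 libraries lay above the 3 Col-0 libraries at every temperature, and MAM1 lay lower in IP-Svi-0.

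BCAT4 starts the pathway as the aminotransferase that removes the amino group of methionine. It lies on the minus strand of chromosome 3, at 6846969 to 6849582 of TAIR10.1. In Col-0 it had 51.0, 61.6 and 42.0 CPM at 10 °C, 85.0, 56.9 and 23.4 at 16 °C, 50.1, 70.3 and 41.7 at 23 °C, and 70.8, 76.5 and 60.8 at 27 °C. In IP-Svi-0 it had 81.3, 71.3 and 60.9 CPM at 10 °C, 49.7, 109.6 and 118 at 16 °C, 74.4, 82.5 and 90.7 at 23 °C, and 131, 119.9 and 133 at 27 °C. The accessions overlapped at 10 and 16 °C and were apart at 23 and 27 °C. Over all temperatures the log2 difference was 0.66 (SE 0.15, edgeR adjusted p = 0.00099). At 27 °C alone it was 0.87 (SE 0.28, edgeR adjusted p = 0.05048), just short of the threshold, which it passed in 17 of 31 alternative fits.

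The counts at BCAT4 need care, because 307 bp of its exons lie opposite exons of IKU2 (AT3G19700), a receptor kinase gene of seed size control. In Col-0 IKU2 held 10412 counts and in IP-Svi-0 19969, against 391 and 754 at BCAT4, which is 26.6 and 26.5 counts per BCAT4 count. IKU2 had 1745 ± 551 CPM (SD, n = 12) in Col-0 and 2701 ± 1154 CPM (SD, n = 12) in IP-Svi-0. Its own log2 difference was 0.56 over all temperatures (SE 0.17, edgeR adjusted p = 0.010). By temperature, IKU2 differed by -0.42 at 10 °C, 0.14 at 16 °C, 1.40 at 23 °C and 1.13 at 27 °C on the log2 scale, and BCAT4 by 0.50, 0.67, 0.59 and 0.87. With the reverse strand setting described above, reads of BCAT4 would be counted at IKU2 where their exons overlap. Neither the part of IKU2 in the BCAT4 counts nor that of BCAT4 in the IKU2 counts was tested.

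BAT5, the plastid transporter of the keto acids, was near the limit of detection. It lies on the plus strand of chromosome 4, at 7210807 to 7213376. It had 26 counts over the 12 Col-0 libraries and 44 over the 12 IP-Svi-0 libraries, or 4.06 ± 4.995 and 5.24 ± 2.79 CPM (SD, n = 12). In 3 Col-0 libraries it had no count (10 °C replicate 2 and 16 °C replicates 2 and 3), which at these depths allows up to 8.99 to 11.7 CPM, taking 3 counts as the limit for counting error only. A fit without the filter on low counts gave a log2 difference of 0.28 over all temperatures (SE 0.41, edgeR adjusted p = 0.82 among 24758 genes). No difference was detectable at this depth.

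MAM1 and MAM3 encode the synthases that lengthen the chain, and lie near each other on the plus strand of chromosome 5. MAM1 spans 7703041 to 7706973 and MAM3 7718118 to 7721866. In Arabidopsis MAM1 is known for short side chains and MAM3 for chains of all lengths, long ones included. Their coding sequences were 83.9% identical in the reference, with no identical run longer than 30 bases. To show how reads of the pair can be told apart, a stretch of 60 coding bases with 14 differences is printed from each gene (RefSeq, TAIR10.1, plus strand), with the differing bases in capitals. The MAM1 stretch is chr5:7705055-7705114 and the MAM3 stretch chr5:7719603-7719662.
MAM1: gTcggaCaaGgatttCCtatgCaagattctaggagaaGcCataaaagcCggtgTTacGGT
MAM3: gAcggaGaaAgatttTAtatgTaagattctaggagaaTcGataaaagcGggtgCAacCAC

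MAM1 was lower in IP-Svi-0. In Col-0 it had 171, 185 and 141 CPM at 10 °C, 198, 153 and 141 at 16 °C, 170.4, 169 and 165 at 23 °C, and 166, 168 and 153 at 27 °C. In IP-Svi-0 it had 67.4, 72.4 and 86.7 CPM at 10 °C, 49.7, 90.4 and 78.1 at 16 °C, 95.7, 122 and 90.7 at 23 °C, and 112, 105 and 146 at 27 °C. At each temperature every IP-Svi-0 library was below every Col-0 library. The Col-0 group means stayed between 162.5 and 168 CPM, while those of IP-Svi-0 were 75.5, 72.8, 102.7 and 121 CPM from 10 to 27 °C. Over all temperatures the log2 difference was -0.86 (SE 0.12, edgeR adjusted p = 6.3e-07).

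MAM1 passed the test at 10 °C (log2 difference -1.14, SE 0.25, edgeR adjusted p = 0.00094) and at 16 °C (-1.19, SE 0.26, edgeR adjusted p = 0.0015). At 23 °C the value was -0.71 (SE 0.25, edgeR adjusted p = 0.07), and DESeq2 called it there (-0.74, adjusted p = 0.039). At 27 °C it was -0.41 (SE 0.24, edgeR adjusted p = 0.38). The difference between temperatures was itself not called: the test of all 3 interaction terms gave an edgeR adjusted p of 0.41 for MAM1. Reads of both accessions were counted against the Col-0 reference, per the submitters' processing notes, and the effect of sequence differences of IP-Svi-0 at this locus was not tested.

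MAM3 did not share that pattern. It had 14.2 to 71.3 CPM in the Col-0 libraries (median 41.6) and 35.9 to 64.8 in those of IP-Svi-0 (median 52.6). Over all libraries the accessions overlapped widely, and the log2 difference over all temperatures was 0.33 (SE 0.16, edgeR adjusted p = 0.11). The value rested in part on Col-0 16 °C replicate 3, which had 50.8 CPM where the other libraries of its group had 14.2 and 24. Without that library MAM3 passed (0.46, edgeR adjusted p = 0.028), also at 16 °C alone (1.54, edgeR adjusted p = 0.015). The Col-0 libraries then left at 16 °C held 5 and 8 MAM3 counts. Of their reads, 35.8 and 29% were not aligned uniquely.

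The ratio of MAM1 to MAM3 counts within a library does not depend on library scaling. It had a geometric mean of 4.21 in Col-0 against 1.77 in IP-Svi-0, a log2 difference of -1.25 (permutation test with 100000 resamples, two-sided, p = 4e-05, and 8e-05 adjusted over the 2 gene pairs compared). At 10 °C the ratios were 4.12, 6.86 and 3.77 in Col-0 and 1.17, 1.40 and 1.62 in IP-Svi-0. At 16 °C they were 14, 6.38 and 2.77 against 1.24, 1.44 and 1.21. At 10, 16 and 23 °C the accessions did not overlap, while at 27 °C they did, with 3.36, 2.48 and 2.15 in Col-0 and 1.88, 1.67 and 3.77 in IP-Svi-0. Exact permutation tests at 1 temperature, with 3 libraries a group, gave p = 0.1 at 10, 16 and 23 °C, the smallest p this design allows, and p = 0.6 at 27 °C. The highest ratio, 14 in Col-0 16 °C replicate 1, rested on 5 MAM3 counts.

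IPMDH1, the dehydrogenase of the elongation cycle, spans 4576123 to 4578402 on the plus strand of chromosome 5. It had 58.6 to 139 CPM in Col-0 (median 77.4) and 58.9 to 154.5 in IP-Svi-0 (median 107). The log2 difference over all temperatures was 0.21 (SE 0.15, edgeR adjusted p = 0.31). In IP-Svi-0 its group means were 108, 116 and 104 CPM at 10, 16 and 27 °C and 66.2 CPM at 23 °C. Its coding sequence was 95.0% identical to IPMDH3 and 83.8% to IPMDH2, and reads shared with IPMDH3, with an identical run of 95 bases, make its level uncertain. It has 25 bp of exon opposite AT5G14210, which held 85 counts over the Col-0 libraries and 26 over those of IP-Svi-0.

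CYP79F1 and CYP79F2 encode the cytochromes P450 that open the second stage. In Arabidopsis CYP79F1 is known to act on short and long chains and CYP79F2 on long ones. They are neighbours on the plus strand of chromosome 1, CYP79F2 at 5605044 to 5607498 and CYP79F1 at 5608682 to 5612064. Their coding sequences were 91.4% identical, with an identical run of 100 bases, so that part of their reads can fall to either gene or be left out as not unique. The stretch of 60 coding bases with 11 differences is printed for each (RefSeq, TAIR10.1, plus strand), again with differing bases in capitals. The CYP79F1 stretch is chr1:5609640-5609699 and the CYP79F2 stretch chr1:5606006-5606065.
CYP79F1: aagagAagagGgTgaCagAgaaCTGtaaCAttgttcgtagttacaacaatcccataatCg
CYP79F2: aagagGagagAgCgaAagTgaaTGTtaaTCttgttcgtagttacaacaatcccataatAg

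CYP79F1 was higher in IP-Svi-0. In Col-0 it had 67.0, 30.8 and 68.5 CPM at 10 °C, 99.2, 53.9 and 66.4 at 16 °C, 53.6, 84.3 and 60.6 at 23 °C, and 75.6, 60.2 and 56.6 at 27 °C. In IP-Svi-0 it had 87.2, 82.8 and 99.6 CPM at 10 °C, 74.6, 124 and 119.6 at 16 °C, 132, 116 and 80.1 at 23 °C, and 93.5, 162 and 161 at 27 °C. The accessions were apart at 10 and 27 °C and overlapped at 16 and 23 °C. The log2 difference was 0.74 over all temperatures (SE 0.15, edgeR adjusted p = 0.00015) and 1.11 at 27 °C (SE 0.28, edgeR adjusted p = 0.0068).

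CYP79F2 had 15.3 to 35.4 CPM in Col-0 (median 26.7) and 17.7 to 41.1 in IP-Svi-0 (median 27.5). Over all temperatures its log2 difference was 0.01 (SE 0.16, edgeR adjusted p = 1), an average of values with opposite signs. They were -0.50 at 10 °C, -0.37 at 16 °C, 0.38 at 23 °C and 0.53 at 27 °C, and none of these passed. The ratio of CYP79F1 to CYP79F2 counts had geometric means of 2.37 in Col-0 against 4.03 in IP-Svi-0, a log2 difference of 0.77 (two-sided permutation test with 100000 resamples, p = 0.00254 unadjusted and over the 2 gene pairs). By temperature it was 1.27, 0.94, 0.37 and 0.50 from 10 to 27 °C (exact permutation p = 0.1, 0.2, 0.5 and 0.3, where 0.1 is the smallest possible).

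**Figure D2:**
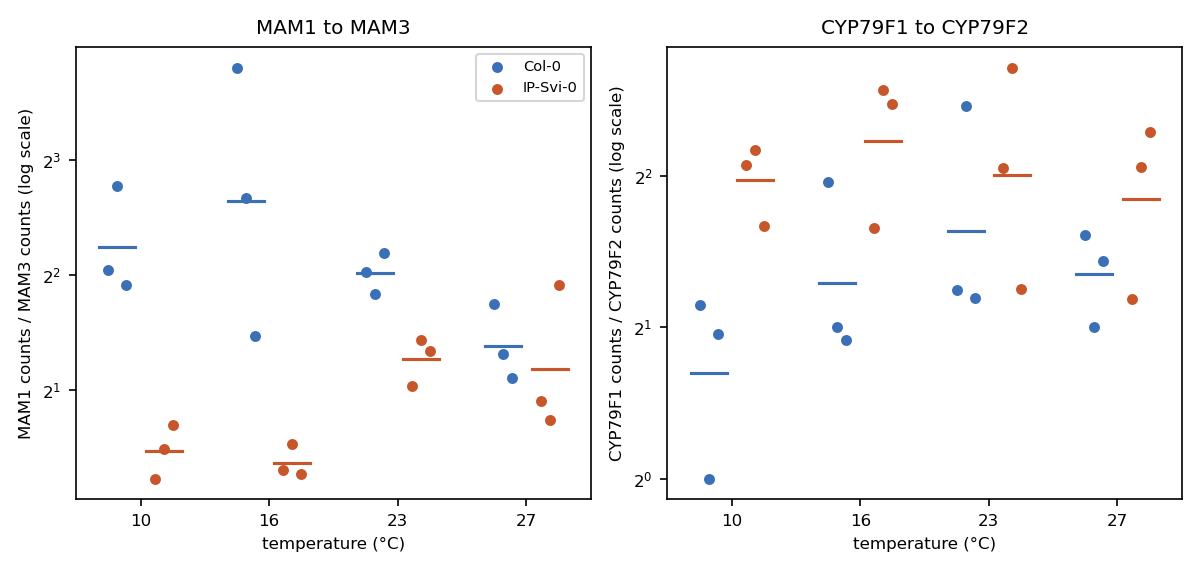
Ratio of counts of MAM1 to MAM3 and of CYP79F1 to CYP79F2 (vertical axes, log scale) in each of the 24 libraries, by accession and temperature. Over all temperatures the geometric mean in Col-0 was 4.21 for the first ratio and 2.37 for the second, and in IP-Svi-0 it was 1.77 and 4.03.

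CYP83A1, the P450 that oxidises the aldoximes, had the smallest adjusted p of the 10 genes. It lies on the minus strand of chromosome 4, at 7990429 to 7992429. In Col-0 it had 229.7, 143 and 161 CPM at 10 °C, 150.2, 174 and 176 at 16 °C, 125, 152 and 140.2 at 23 °C, and 148, 118 and 94.3 at 27 °C. In IP-Svi-0 it had 387, 389.7 and 415 CPM at 10 °C, 278, 289 and 311 at 16 °C, 315, 296 and 200.3 at 23 °C, and 324, 352 and 282 at 27 °C. At each temperature every IP-Svi-0 library was above every Col-0 library. The log2 difference was 1.08 over all temperatures (SE 0.12, edgeR adjusted p = 4.5e-09).

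At single temperatures CYP83A1 differed by 1.14 at 10 °C (SE 0.25, edgeR adjusted p = 0.00073), 0.81 at 16 °C (SE 0.25, edgeR adjusted p = 0.037), 0.96 at 23 °C (SE 0.25, edgeR adjusted p = 0.008) and 1.40 at 27 °C (SE 0.25, edgeR adjusted p = 6.9e-05). At 16 °C leaving out any one of 16 libraries took the adjusted p above 0.05, to at most 0.116, with values from 0.73 to 0.86. At 23 °C the same held without Col-0 23 °C replicate 1 (0.85, edgeR adjusted p = 0.072) or IP-Svi-0 23 °C replicate 1 (0.83, edgeR adjusted p = 0.064). No other gene overlaps CYP83A1, and its coding sequence was 67.7% identical to CYP83B1, its counterpart of the indole pathway.

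The promoters of the 10 genes were searched on both strands, over the 250 bases before the RefSeq gene start, for the G-box CACGTG, which MYC factors bind. They were also searched for 3 forms of the AC element that MYB factors bind, of which the first is ACCTACC, the second ACCAACC and the last ACCTAAC. Of the 10 promoters 1 held CACGTG, as did 6.49% of all 27444. The form ACCTACC was in 2 of 10 and in 1.16% of all. The form ACCAACC was in 1 of 10, that of BAT5, and in 2.69% of all, and ACCTAAC was in 0 of 10 and in 2.46% of all. CYP83A1 held both CACGTG, starting 43 bases before the gene start, and ACCTACC on the other strand, read as GGTAGGT, 71 bases before it. CYP79F2 held ACCTACC 104 bases before its start. The 2 promoters with ACCTACC, of 1 gene called between the accessions and 1 not called, are printed with the motifs in capitals (RefSeq, TAIR10.1). All promoters searched are of the Col-0 reference, and those of IP-Svi-0 were not read. A match is a description of the letters, not of a bound site. The CYP83A1 promoter is chr4:7992430-7992679, minus strand, and that of CYP79F2 chr1:5604794-5605043, plus strand.
CYP83A1: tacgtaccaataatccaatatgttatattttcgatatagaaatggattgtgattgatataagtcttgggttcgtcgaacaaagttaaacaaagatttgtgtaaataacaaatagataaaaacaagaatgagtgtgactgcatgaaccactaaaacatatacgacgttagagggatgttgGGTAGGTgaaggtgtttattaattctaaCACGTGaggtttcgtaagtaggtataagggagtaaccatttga
CYP79F2: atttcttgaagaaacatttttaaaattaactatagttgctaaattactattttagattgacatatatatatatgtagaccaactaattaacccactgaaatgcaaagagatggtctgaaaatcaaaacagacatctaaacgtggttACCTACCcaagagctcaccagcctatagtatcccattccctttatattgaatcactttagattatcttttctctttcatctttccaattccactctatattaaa

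UGT74C1, a glucosyltransferase of the second stage, was higher in IP-Svi-0. It spans 13518199 to 13520364 on the plus strand of chromosome 2. In Col-0 it had 73.4, 65.5 and 44.2 CPM at 10 °C, 90.7, 62.9 and 70.3 at 16 °C, 51.2, 62.6 and 53.0 at 23 °C, and 64.9, 80.3 and 50.3 at 27 °C. In IP-Svi-0 it had 96.2, 110.4 and 105 CPM at 10 °C, 84.0, 104 and 99.7 at 16 °C, 80.8, 84.4 and 80.1 at 23 °C, and 76.7, 94.0 and 106 at 27 °C. The accessions were apart at 10 and 23 °C and overlapped at 16 and 27 °C. The log2 difference was 0.54 over all temperatures (SE 0.13, edgeR adjusted p = 0.001).

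At 10 °C UGT74C1 passed as well, with 0.76 (SE 0.25, edgeR adjusted p = 0.026). It did not pass there without Col-0 10 °C replicate 2 (0.80, edgeR adjusted p = 0.057) or replicate 3 (0.58, edgeR adjusted p = 0.17), or without IP-Svi-0 10 °C replicate 2 (0.71, edgeR adjusted p = 0.0865). With the share of counts at genes with no opposite exon as a covariate it was 0.50 (edgeR adjusted p = 0.23). Of its exons 265 bp lie opposite AT2G08470, which was not among the genes counted. AT2G31800, also on the other strand, overlaps it by 40 bp. AT2G31800 was itself higher in IP-Svi-0 (log2 difference 0.63 over all temperatures, SE 0.15, edgeR adjusted p = 0.0014). Neither the part of these genes in the UGT74C1 counts nor that of UGT74C1 in the AT2G31800 counts was tested.

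SOT18, the sulfotransferase that completes the core structure, spans 27862814 to 27864193 on the plus strand of chromosome 1. It had 24.3 to 59.5 CPM in Col-0 (median 38.6) and 36.8 to 61.7 in IP-Svi-0 (median 52.2). The accessions overlapped at 10 and 16 °C and were apart at 23 and 27 °C. The log2 difference over all temperatures was 0.42 (SE 0.14, edgeR adjusted p = 0.021). It did not pass without Col-0 10 °C replicate 3 (0.36, edgeR adjusted p = 0.059), Col-0 16 °C replicate 2 (0.37, edgeR adjusted p = 0.053) or IP-Svi-0 10 °C replicate 1 (0.36, edgeR adjusted p = 0.059), or with that same share as a covariate (0.30, edgeR adjusted p = 0.13). The gene overlaps AT1G74088 on the same strand by 9 bp, and that gene held 34 counts over the Col-0 libraries and 73 over those of IP-Svi-0. The coding sequence was 81.4% identical to SOT16 and 78.7% to SOT17, the other sulfotransferases of the pathway.

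At single temperatures, the accession difference was called at 3 of 9 tested genes at 10 °C (MAM1, CYP83A1 and UGT74C1), where 24% of all genes were called. It was called at 2 at 16 °C (MAM1 and CYP83A1; 8.22% of all genes), at 1 at 23 °C (CYP83A1; 7.93%) and at 2 at 27 °C (CYP83A1 and CYP79F1; 8.05%). CYP83A1 was the gene called at all 4. Signs did not change with temperature for CYP83A1, CYP79F1, BCAT4, UGT74C1 and SOT18, which were positive at each, or for MAM1, which was negative at each. MAM3, IPMDH1 and CYP79F2 had both signs.

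**Figure D3:**
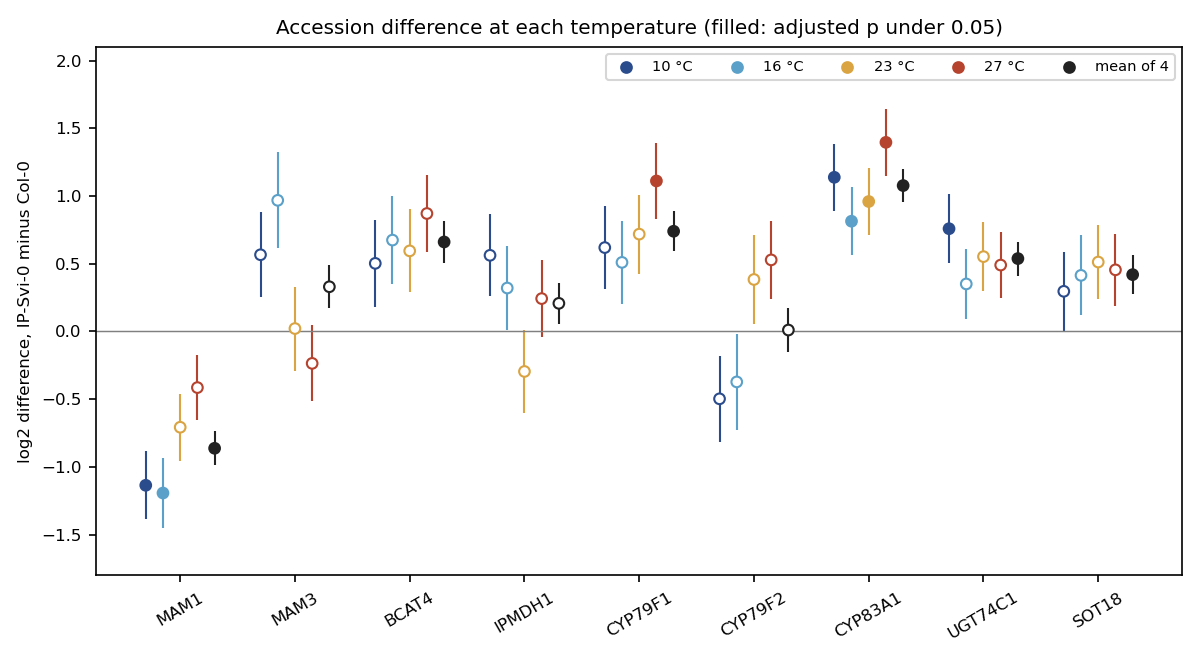
Fitted log2 difference IP-Svi-0 minus Col-0 of the 9 tested genes at each temperature and over all temperatures, with bars of 1 SE. CYP83A1 lay between 0.81 and 1.40 at the 4 temperatures and MAM1 between -1.19 and -0.41.

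Per kilobase of exon, the order of the genes differed between the accessions. In Col-0 MAM1 had the highest level, 80.5 CPM per kb, followed by CYP83A1 with 79.0. In IP-Svi-0 CYP83A1 was first with 167.5 CPM per kb, and MAM1 ranked 5 with 45.4. BAT5 was last in both, with 1.84 and 2.37 CPM per kb, and CYP79F2 next to last with 13.4 and 13.8.

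Within an accession, 10, 16 and 27 °C were each compared with 23 °C, and other pairs of temperatures were not tested. Against 23 °C, edgeR called 0 of 9 tested genes at 10, 16 and 27 °C in Col-0, where 6.69, 1.23 and 0.109% of all genes were called. It also called 0 of 9 in IP-Svi-0, where 15.8, 0.782 and 0% of all genes were called. At an unadjusted p under 0.05 the counts were 0, 0 and 0 in Col-0 and 2, 1 and 2 in IP-Svi-0. DESeq2 called 1, CYP83A1 in IP-Svi-0 at 10 °C (0.58, adjusted p = 0.049). The edgeR value of CYP83A1 there was 0.55 (SE 0.24, adjusted p = 0.11).

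IPMDH1 had the largest fitted temperature values in IP-Svi-0. They were 0.71 at 10 °C (SE 0.30, edgeR adjusted p = 0.11), 0.79 at 16 °C (SE 0.30, edgeR adjusted p = 0.20) and 0.65 at 27 °C (SE 0.30, edgeR adjusted p = 0.72), all against 23 °C. Without IP-Svi-0 16 °C replicate 1, IPMDH1 passed at 10 °C (0.77, edgeR adjusted p = 0.041) and 16 °C (1.11, edgeR adjusted p = 0.045). All 3 comparisons share the 23 °C libraries, in which IPMDH1 had 72.3, 58.9 and 67.5 CPM. In Col-0 its values were -0.15, 0.17 and 0.11.

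The temperature responses of the accessions were compared through interaction terms. edgeR called 0 of 9 tested genes at 10 °C, where 5.51% of all genes were called, and 0 at 16 and 27 °C, where 0% were. At an unadjusted p under 0.05 the counts were 0, 0 and 0. The joint test of the 3 terms called 0 of 9, against 1.43% of all genes. Only MAM3 of the 9 genes had an unadjusted p under 0.05 in the joint test (0.049, edgeR adjusted p = 0.30). DESeq2 called 0 in each of these comparisons.

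In the order of the 8 group means, the 4 IP-Svi-0 groups ranked above the 4 Col-0 groups for BCAT4, CYP79F1, CYP83A1, UGT74C1 and SOT18. For MAM1 the 4 Col-0 groups ranked above the 4 of IP-Svi-0. Neighbours in these orders mostly overlapped. They were apart at MAM1 between Col-0 and IP-Svi-0 at 27 °C and between IP-Svi-0 at 23 and 10 °C, at BCAT4 between IP-Svi-0 at 27 and 16 °C, and at CYP83A1 between IP-Svi-0 at 10 and 27 °C. For MAM3, BAT5, IPMDH1 and CYP79F2 the accessions were mixed in the order and all neighbours overlapped.

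Pairs of the 9 genes differed widely in their correlation across the 24 libraries. Over 36 pairs the median Pearson r of log2 CPM was 0.19, and 0.22 after subtracting group means, with 23 pairs above 0 in each case. Among BCAT4, IPMDH1, CYP79F1, CYP83A1, UGT74C1 and SOT18 every pair was positive over all libraries, from 0.37 to 0.78. After subtracting group means these pairs ran from -0.09 to 0.77. Pairs with MAM1, MAM3 or CYP79F2 ran from -0.76 (MAM1 and CYP83A1) to 0.28 over all libraries. Within groups, BCAT4 and IPMDH1 had r = 0.77, UGT74C1 and SOT18 0.65, and MAM1 and IPMDH1 0.64. MAM1 and UGT74C1 had r = -0.58 over all libraries and 0.62 within groups. These values describe 24 libraries that share depth and scaling.

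Other genes listed for the pathway were described in the same comparison over all temperatures, in which 16% of all genes were higher and 16.7% lower. Among 7 other genes listed under chain elongation, IPMDH2, IPMDH3 and IPMI SSU1 included, all were tested, 2 were higher in IP-Svi-0 and 0 lower. They were IIL1, the large subunit of the isomerase, with 113.5 ± 26.3 CPM in Col-0 against 195 ± 41.7 in IP-Svi-0 (SD, n = 12; log2 difference 0.76, SE 0.14, edgeR adjusted p = 3.5e-05), and its small subunit IPMI1 (0.80, SE 0.17, edgeR adjusted p = 0.00022). The median of the 7 was 0.33, and whether each of the 7 acts in this pathway was not tested.

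Of 6 other genes of the core and sulfur steps, 5 were tested, 2 were higher and 0 lower. GSTU20, a glutathione transferase of the aliphatic branch, had 191 ± 40.1 CPM in Col-0 against 443 ± 103 in IP-Svi-0 (SD, n = 12; log2 difference 1.22, SE 0.14, edgeR adjusted p = 1.1e-08). GGP1, a peptidase of the sulfur step, had a log2 difference of 0.60 (SE 0.14, edgeR adjusted p = 0.0006). The median of the 5 was 0.26.

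Of 9 genes of side chain modification, 7 were tested, 3 were higher and 1 lower, with a median of 0.03. AOP2, the dioxygenase that makes alkenyl side chains, had 9.54 ± 5.73 CPM in Col-0 against 317 ± 124 in IP-Svi-0 (SD, n = 12; log2 difference 4.99, SE 0.19, edgeR adjusted p = 7.6e-23). AOP3, its neighbour for hydroxyalkyl side chains, had 0 counts in all 24 libraries, where 3 counts over 12 libraries would be 0.458 CPM in Col-0 and 0.371 CPM in IP-Svi-0. The S-oxygenase FMO GS-OX1 was higher (1.03, SE 0.20, edgeR adjusted p = 0.0001) and FMO GS-OX2 lower (-1.40, SE 0.30, edgeR adjusted p = 0.00037).

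Of 7 regulators, 5 were tested, 2 were higher and 0 lower, with a median of 0.23. MYB28 had 36.4 ± 13.1 CPM in Col-0 against 36.6 ± 7.86 in IP-Svi-0 (SD, n = 12; log2 difference -0.01, SE 0.17, edgeR adjusted p = 0.96). MYB29 had 16.2 ± 7.52 and 27.9 ± 12.4 CPM (SD, n = 12; log2 difference 0.63, SE 0.22, edgeR adjusted p = 0.024). At single temperatures its log2 difference was 0.16 at 10 °C, 0.14 at 16 °C, 0.75 at 23 °C and 1.48 at 27 °C, and the last of these passed (SE 0.37, edgeR adjusted p = 0.0058). At 27 °C it had 20.1, 17.6 and 8.39 CPM in Col-0 and 46.75, 46.99 and 43.6 in IP-Svi-0, which did not overlap. The mean over all temperatures did not pass without Col-0 16 °C replicate 2 (0.57, edgeR adjusted p = 0.055) or Col-0 23 °C replicate 1 (0.52, edgeR adjusted p = 0.055). MYB76 had 5 and 12 counts and was not tested. MYC3 passed (0.50, SE 0.18, edgeR adjusted p = 0.027), but in 7 of the 24 fits without 1 library and with DESeq2 (0.49, adjusted p = 0.0502) it did not.

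Of 3 glucosinolate transporters 2 were lower in IP-Svi-0 and 0 higher, NPF2.9 by -0.58 (SE 0.17, edgeR adjusted p = 0.0069) and NPF2.11 by -0.50 (SE 0.13, edgeR adjusted p = 0.0034). NPF2.9 has 605 bp of exon opposite AT1G18890, NPF2.11 73 bp opposite AT5G62670 and APS4 74 bp opposite AT5G43770. Of 5 genes of sulfate activation, 1 was higher and 1 lower. The sulfurylase APS4 differed by -2.06 (SE 0.23, edgeR adjusted p = 1.6e-09). The kinase APK1 differed by 0.67 (SE 0.21, edgeR adjusted p = 0.015) and did not pass without IP-Svi-0 23 °C replicate 1 (0.53, edgeR adjusted p = 0.064). Together, of 37 genes on these lists 32 were tested, 10 were higher and 4 lower, with a median of 0.19. The share of these 32 called lower was thus near the 16.7% of all genes, and the counts of single lists rest on few genes.

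The indole branch, which makes glucosinolates from tryptophan, served as the nearest comparison. Of its 10 genes 7 were tested, 1 was higher and 0 lower, with a median log2 difference of 0.09, where 16% of all genes were higher and 16.7% lower. That gene was the glutathione transferase GSTF9 (0.40, SE 0.12, edgeR adjusted p = 0.012). The difference between the branches was not tested.

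**Figure D4:**
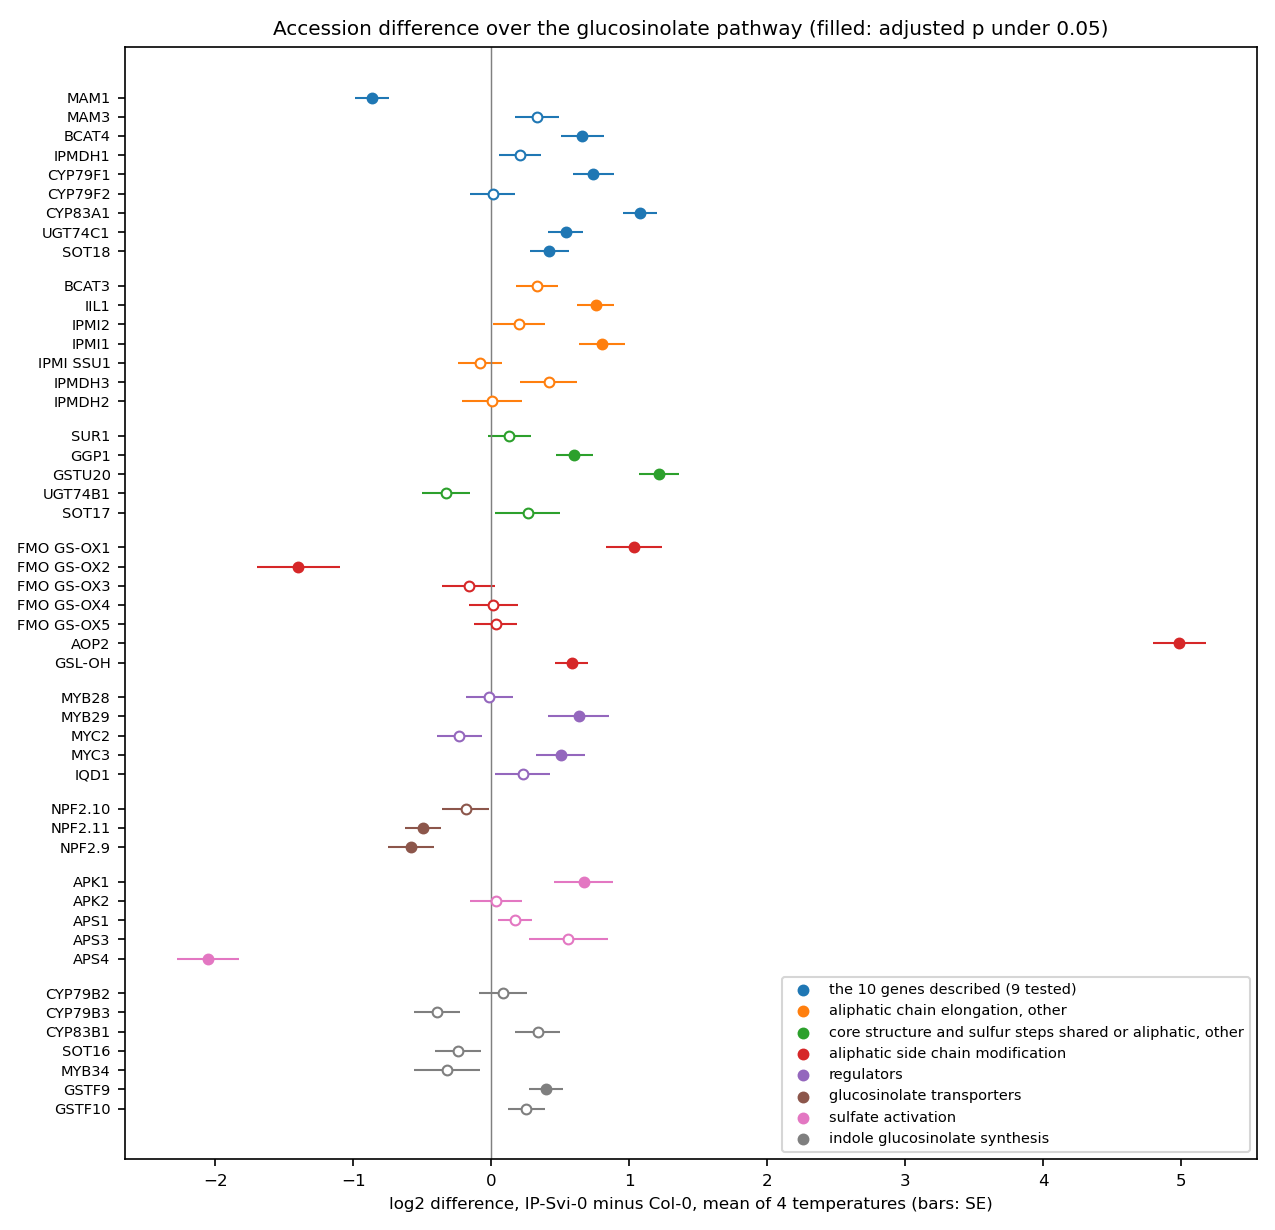
Fitted log2 difference IP-Svi-0 minus Col-0 over all temperatures for every tested gene listed for the pathway, grouped by list, with bars of 1 SE. AOP2 stood at 4.99 and APS4 at -2.06, while the indole genes had a median of 0.09.

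A few genes of these lists changed with temperature. In Col-0 at 16 against 23 °C 1 of the 32 tested genes outside the indole list was called, and 1.23% of all genes. In Col-0 at 10 against 23 °C 4 of these 32 and 1 of 7 tested indole genes were called, and 6.69% of all genes. Such counts are too small to compare the accessions. UGT74B1, the other glucosyltransferase of the core pathway, fell by 1.48 on the log2 scale (SE 0.36, edgeR adjusted p = 0.0074), although not without Col-0 10 °C replicate 3 (-1.37, edgeR adjusted p = 0.06). NPF2.11 rose by 1.13 (SE 0.25, edgeR adjusted p = 0.0034), and MYC2 fell by 2.34 (SE 0.34, edgeR adjusted p = 7.2e-06). MYC2 also fell by 1.55 in Col-0 at 16 °C (SE 0.33, edgeR adjusted p = 0.0079), although not without Col-0 16 °C replicate 2 (-1.48, edgeR adjusted p = 0.07). FMO GS-OX2 (-1.94, SE 0.52, edgeR adjusted p = 0.017) and CYP79B3, which starts the indole branch (-1.29, SE 0.32, edgeR adjusted p = 0.0087), passed at 10 °C in Col-0. Both fell short without Col-0 10 °C replicate 1 or replicate 2, and FMO GS-OX2 also without Col-0 23 °C replicate 2.

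In IP-Svi-0 at 10 against 23 °C, 2 of the same 32 genes and 0 of 7 indole genes were called, and 15.8% of all genes. AOP2 fell by 1.09 (SE 0.27, edgeR adjusted p = 0.0042) and MYC2 by 1.18 (SE 0.32, edgeR adjusted p = 0.010). AOP2 did not pass without IP-Svi-0 23 °C replicate 1 (-0.82, edgeR adjusted p = 0.061). MYC2 did not pass without IP-Svi-0 10 °C replicate 1 (-0.88, edgeR adjusted p = 0.11) or replicate 2 (-0.88, edgeR adjusted p = 0.12). MYC2 has 3241 bp of exon opposite AT1G32630, so its counts are uncertain.

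The profile most like that of the 9 genes, taken as their mean of centred and scaled log2 CPM over the 24 libraries, was found among 10086 other genes by Pearson r. The 5 highest were ATNTT2 (0.80), ATPMEPCRB (0.80), DJ1F (0.78), GSTU20 (0.78) and IIL1 (0.77). AOP2 ranked 7, FMO GS-OX1 ranked 8 and MYB29 ranked 15. MYB28 had r = 0.36 and ranked 1530. These values are descriptions over 24 libraries in 2 accessions.

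Marker genes of tissues were summed beside these results. All 5 green tissue markers had counts in every group, with sums of 24210 to 37380 CPM in IP-Svi-0 at 10 °C, 9976 to 18230 in Col-0 at 10 °C and 6929 to 16080 in the other groups. RBCS1A, RBCS2B and CAB3 had the higher mean over all temperatures in IP-Svi-0, and CAB2 and LHCB2.1 in Col-0. The 5 root markers summed to 15.2 to 81.1 CPM and were highest in IP-Svi-0 at 10 °C, from 59.5 to 81.1. Over all temperatures PRP3 (10.2 CPM in Col-0, 28.3 in IP-Svi-0), PRP1 and EXPA7 had the higher mean in IP-Svi-0. PHT1;1 (8.96 CPM in Col-0, 4.48 in IP-Svi-0) and NRT2.1 had the higher mean in Col-0. At 10 °C the sum of the 6 seed markers was between 88.6 and 187 CPM in Col-0 libraries and between 23.97 and 132 CPM in those of the other accession. At 16 °C the ranges were 66.4 to 147 CPM for Col-0 against 102 to 386 for IP-Svi-0, at 23 °C 37.9 to 793 against 296 to 761, and at 27 °C 14.7 to 79.0 against 588 to 1023. Of these seed markers CRA1, CRC and OLEO1 had the higher mean in IP-Svi-0, and CRU2, SESA1 and SESA3 in Col-0. The last 3 means depended on high single libraries, of up to 67.9, 57.2 and 97.7 CPM. Their medians were 0, 0 and 1.1 CPM in Col-0 and 0, 1.09 and 0 CPM in IP-Svi-0. Of 3 flower markers 2 had any count, with sums of 0 to 4.19 CPM. Genes with no opposite exon held 34.7 to 48.4% of nuclear counts in Col-0 libraries and 41.5 to 52.8% in those of IP-Svi-0. The part of tissue composition in the accession differences was not tested.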

How the data were processed

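The authors deposited raw read counts per gene for 33602 genes and 24 libraries, with 5 further lines for reads not counted at a gene, which were left out of library sizes (96.4 to 98.6% of reads). The submitters' processing notes name FastQC, HISAT2, HTSeq, Cufflinks, Cuffdiff and the build TAIR10. Versions and the strand setting are not given in the sources used here. Positions, overlaps and sequences come from RefSeq TAIR10.1, whose table matched 32835 gene IDs and not the other 767.

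Counts were scaled with TMM and tested in R 4.3.3 with edgeR 4.0.16 (limma 3.58.1). filterByExpr with a minimum count of 10 left 10097 genes. The quasi-likelihood fit used all 24 libraries and the 8 group means. A gene was called at an adjusted p (Benjamini-Hochberg) under 0.05. The SE is the log2 difference over the root of F. Ratios within gene pairs were tested by permutation of accession labels. Over all temperatures the labels were shuffled across the 24 libraries without regard to temperature.

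The 10 genes and the other gene lists were chosen with earlier results of these data known. All 10 genes are named, with up to 2 called genes per direction of each other list in a comparison. Alternatives were DESeq2 1.42.0, its size factors in edgeR, no expression filter, the replicate number as a block, a covariate (the percentage of nuclear counts held by genes with no opposite exon), 2 groups alone, and each library left out. Leaving out the 5 libraries with over 20% non-unique reads, and the alternatives for ratios, were chosen after seeing the data. In 24 pairs of libraries of the same group, chi-square per degree of freedom was 2.01 to 14.8, so no library was counted as a duplicate. Floors cover counting error only.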

Additional observations from a re-analysis of the deposited data

Results flagged for a closer look

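UGT74B1, a glucosyltransferase of the core pathway that is not among the 10 genes, had a called interaction of accession and temperature that depended on the fit. Its change from 23 to 10 °C was higher in IP-Svi-0 than in Col-0 by 2.05 on the log2 scale (SE 0.50, edgeR adjusted p = 0.018). The call was lost in fits without Col-0 10 °C replicate 3, Col-0 23 °C replicate 1 or IP-Svi-0 23 °C replicate 2, with values of 1.99, 1.97 and 1.79. It was also lost with the covariate described in the processing, the percentage of nuclear counts at genes with no opposite exon (1.87, edgeR adjusted p = 0.184).

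CYP79F2 had accession differences of opposite sign with groups that did not overlap. At 16 °C the 3 IP-Svi-0 libraries (20.9 to 23.7 CPM) were below the 3 Col-0 libraries (25.5 to 35.1 CPM), with a log2 difference of -0.37 (edgeR adjusted p = 0.586). At 27 °C they were above (32.9 to 41.1 against 21.0 to 30.1 CPM), with 0.53 (edgeR adjusted p = 0.337). Neither difference passed, and groups that did not overlap were found at 21.4% of all genes at 16 °C and 25.4% at 27 °C. This pair of temperatures was not tested against each other. The joint test of the 3 interaction terms against 23 °C gave an edgeR adjusted p of 0.32.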

How the results depend on the processing

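Over all temperatures the count of called genes among the 10 stayed within 5 to 7 of the reported 6. At 16 °C it was 2 and became 1 with no expression filter, with the 2 groups alone and in fits without 1 library (1 to 2), and 3 with the covariate, where MAM3 was added. At 23 °C it was 1 and became 2 with DESeq2, 3 with the covariate, 2 with the 2 groups alone, 2 without the libraries rich in non-unique reads, and 0 to 2 without 1 library. For IP-Svi-0 at 10 against 23 °C it was 0 and became 1 with DESeq2, 1 with the 2 groups alone, 1 without the libraries rich in non-unique reads, and 0 to 1 without 1 library. For IP-Svi-0 at 16 against 23 °C it was 0, and 0 to 1 without 1 library.

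Same-numbered libraries of different groups did not vary together in a steady way. Over 84 such pairs r ran from -0.646 to 0.538 with a median of 0.0493, and 36 pairs were above 0.1. The median of the 168 other pairs was -0.0195. The numbers were not taken as pairing. With the replicate number as a block, the count over all temperatures was 6, and BCAT4 at 27 °C passed (0.89, edgeR adjusted p = 0.047), with no other change among the 9 genes. Without the 5 libraries rich in non-unique reads, which leaves no Col-0 library at 16 °C, the mean was taken over 10, 23 and 27 °C. There SOT18 (0.44, edgeR adjusted p = 0.052), GSTF9 (0.30, edgeR adjusted p = 0.127), MYC3 (0.39, edgeR adjusted p = 0.143) and APK1 (0.63, edgeR adjusted p = 0.056) fell short, as did UGT74C1 at 10 °C (0.82, edgeR adjusted p = 0.051) and, in Col-0 at 10 against 23 °C, FMO GS-OX2 and CYP79B3. With the covariate MAM3 passed over all temperatures (0.45, edgeR adjusted p = 0.045), and MYB29, MYC3, APK1, GSTF9, NPF2.9 and NPF2.11 fell short. Over all genes, the covariate took the interaction calls at 10 °C from 556 to 31 and those of the accession difference at 10 °C from 2422 to 1058. No called value of the 9 genes changed sign in the fits run. The cause of these changes was not tested. Counts at the 10 genes, 168 to 1105 per library, limit what can be detected.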
